A study of Mus musculus with 14 samples.

Results

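The extracellular matrix genes of the mouse colon were examined in mice with and without the miR-29ab1 locus. They were 41 genes taken by symbol from the raw count tables, out of 55889 genes listed in the table without dextran sulphate sodium (DSS) and 54721 in the table after DSS. The list held 10 interstitial collagens, the 6 type IV collagens, 4 other collagens of the basement membrane zone, 7 laminins, 3 genes for the nidogens and perlecan, 3 for fibrillin, elastin and fibronectin, 5 for collagen folding, crosslinking and binding, and 3 for matrix turnover. All 41 were present in both tables.

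The C57BL/6N mice fell into 4 groups, sequenced with 1 RNA library per mouse. Without DSS there were 4 wild-type (WT) mice and 4 mice lacking both copies of miR-29ab1 in every cell (miR-29ab1-/-), the locus that encodes miR-29a and miR-29b. The other table held 3 WT and 3 miR-29ab1-/- mice that had drunk 3.5% DSS, a detergent-like polymer that injures the colonic epithelium, for 3 days. The mice were 8 to 12 weeks old by the general methods of the study, which used both sexes, and the sex of each sequenced mouse was not given in the sources used here. The 2 tables were made separately and share no mouse, so DSS and experiment cannot be told apart, and genotypes were compared only within a table.

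The labels name small intestinal crypts, whereas the methods of the study describe colon. The colonic genes Car1 and Hoxd13 averaged 2905 and 29.1 CPM (counts scaled to the library size) without DSS, while the small-intestinal genes Apoa4 and Lct had at most 2 and 6 reads in any mouse. Fabp2, an intestinal fatty acid binding protein gene looked at with them, was not low, averaging 194.8 CPM without DSS and 289.1 CPM after DSS. The libraries were mainly epithelial: Krt8 and Epcam averaged 4727 and 1546 CPM without DSS. Myh11 and Acta2, which define smooth muscle, averaged 0.0818 and 0.154 CPM, and Sox10, a marker of enteric glia, had no read in any mouse. Library totals ranged from 14231157 to 18185020 reads without DSS and from 20076719 to 23153149 after DSS. The mature miRNAs were not measured by this assay, and Mir29a had no read in any library. Mir29b-1 had 1 read each in miR-29ab1-/- mice 3 and 4 without DSS and none in any WT mouse, too few to check the labels in either direction. The genotype labels could be read only from Lncpint, a gene annotated next to the locus on the same strand and outside it, which lay between 0.251 and 1.28 CPM in the WT mice and between 29.4 and 200 CPM in the miR-29ab1-/- mice. After DSS, miR-29ab1-/- mice 1 and 2 had 14.8% and 20.2% mitochondrial reads, against 6.15% to 8.81% in the other 4 mice.

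The matrix beneath an epithelium has a pair of layers. The basement membrane is a sheet of laminin and type IV collagen networks, joined by nidogen and perlecan, to which epithelial and endothelial cells attach. Below it lies the interstitial matrix of fibrillar collagens, type VI collagen, fibrillin and elastin, made mostly by fibroblasts and other mesenchymal cells. The miR-29 family is best known as a post-transcriptional repressor of these genes: a miRNA pairs through its seed, bases 2 to 8, with the 3′ untranslated region (UTR) of a messenger RNA and lowers its stability or translation.

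The mature miR-29 sequences are shown because they fix which matrix genes can be matched. They are RefSeq sequences on GRCm38.p6, written 5′ to 3′ with the seed in capitals. The deleted locus on chromosome 6, minus strand, encodes miR-29a-3p (chr6:31062673-31062694) and miR-29b-3p (chr6:31063025-31063047). A second locus on chromosome 1, plus strand, encodes miR-29b-3p again (chr1:195037091-195037113) and miR-29c-3p (chr1:195037600-195037621). All 3 mature forms share 1 seed.
miR-29a-3p: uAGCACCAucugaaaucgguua
miR-29b-3p: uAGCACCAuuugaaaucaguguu
miR-29c-3p: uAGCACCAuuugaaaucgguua

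The 3′ UTRs of the GENCODE vM21 transcripts (GRCm38) were searched, on the transcript strand only, for TGGTGCTA (an 8mer match, the seed complement followed by A) and TGGTGCT (a 7mer-m8 match, counted where no A follows). Of the 41 genes, 24 held at least 1 match and 17 held none. Among the members with enough reads to be tested without DSS, 13 (46.4%) held one, against 16.3% of all genes tested there and carrying an annotated 3′ UTR. The members were chosen as a known class of miR-29 targets, so this excess may follow from the choice. Matches were found in all 6 type IV collagen genes, and in 8 of the 10 interstitial collagen genes, with Col1a2 and Col6a1 as the exceptions. Among the 7 laminins, Lamc1 was the member with a match. The windows below are the matched sites of the collagens and the laminin on which the comparisons turned, with the match in capitals at the 3′ end of each.
Col4a1, chr8:11199761-11199784, minus strand: tgccaccgtcacaacaTGGTGCTA
Col4a2, chr8:11448342-11448365, plus strand: gtgtgggaaggccacgtTGGTGCT
Col4a2, chr8:11448513-11448536, plus strand: cgccaccacacccagctTGGTGCT
Col3a1, chr1:45348966-45348989, plus strand: cttcaaaatgtctcaaTGGTGCTA
Lamc1, chr1:153220068-153220091, minus strand: ctattatctgacacacTGGTGCTA
A match is a description of the letters and not evidence of binding. Sparc, Nid1, Lama3, Lama5 and Lamb2, which recur below, held neither match. Sparc had 2 of the shorter GGTGCT matches, Nid1 had 1, and Lama3 and Lama5 had none.

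The 5 members expected from the epithelium had a higher median level than the 16 expected from mesenchymal cells. The medians were 15.6 against 1.66 CPM without DSS and 16.1 against 1.62 CPM after DSS. The ranges overlapped, so level did not separate the groups fully, and Lamb3 alone stood apart in both tables. By CPM after DSS, Lama3 at 37.8 and Lama5 at 16.1 also lay above the highest mesenchymal member, Col3a1 at 9.76. In CPM per kilobase of gene length, which allows levels of different genes to be compared, Lamb3 stood first in both tables at 16.7 without DSS and 32.4 after it. Lamb3 encodes the beta chain of laminin-332, the laminin that anchors epithelial cells. Col7a1 and Col17a1, collagens with which epithelial cells are anchored, averaged 2.06 and 0.283 CPM without DSS, within the range of the mesenchymal members. Perlecan (Hspg2) followed without DSS at 3.49 CPM per kilobase. The highest interstitial collagen was Col3a1, at 0.608 without DSS and 0.995 after DSS. The highest type IV collagen was Col4a1, at 0.218 and 0.170. Fn1, which encodes fibronectin, headed its group without DSS at 1.73 CPM per kilobase, above the epithelial laminins Lama3 at 1.47 and Lama5 at 1.37, and Fbn1 headed it after DSS at 0.381. Pxdn, which encodes the peroxidase that crosslinks type IV collagen, headed the folding and crosslinking genes without DSS at 0.727, and Sparc headed them after DSS at 1.90. The matrix turnover genes were headed by Mmp2, a gelatinase, without DSS at 0.439, and by Timp3, a metalloprotease inhibitor bound to the matrix, after DSS at 0.263.

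By CPM, 7 of the 41 genes averaged 10 or more without DSS (Lamb3, Hspg2, Fn1, Lama3, Lama5, Lamb2 and Lamc1), 18 lay between 1 and 10, and 16 were under 1. After DSS the numbers were 4, 19 and 18. A count of 3 reads was worth 0.165 to 0.215 CPM without DSS and 0.125 to 0.159 after it, so that many members under 1 CPM rested on a few reads per mouse. Col4a6 and Lama1 had no read in any of the 8 mice without DSS, which allows up to 0.215 CPM in the shallowest library, and a member at this depth may still be expressed below that limit.

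**Figure D1:**
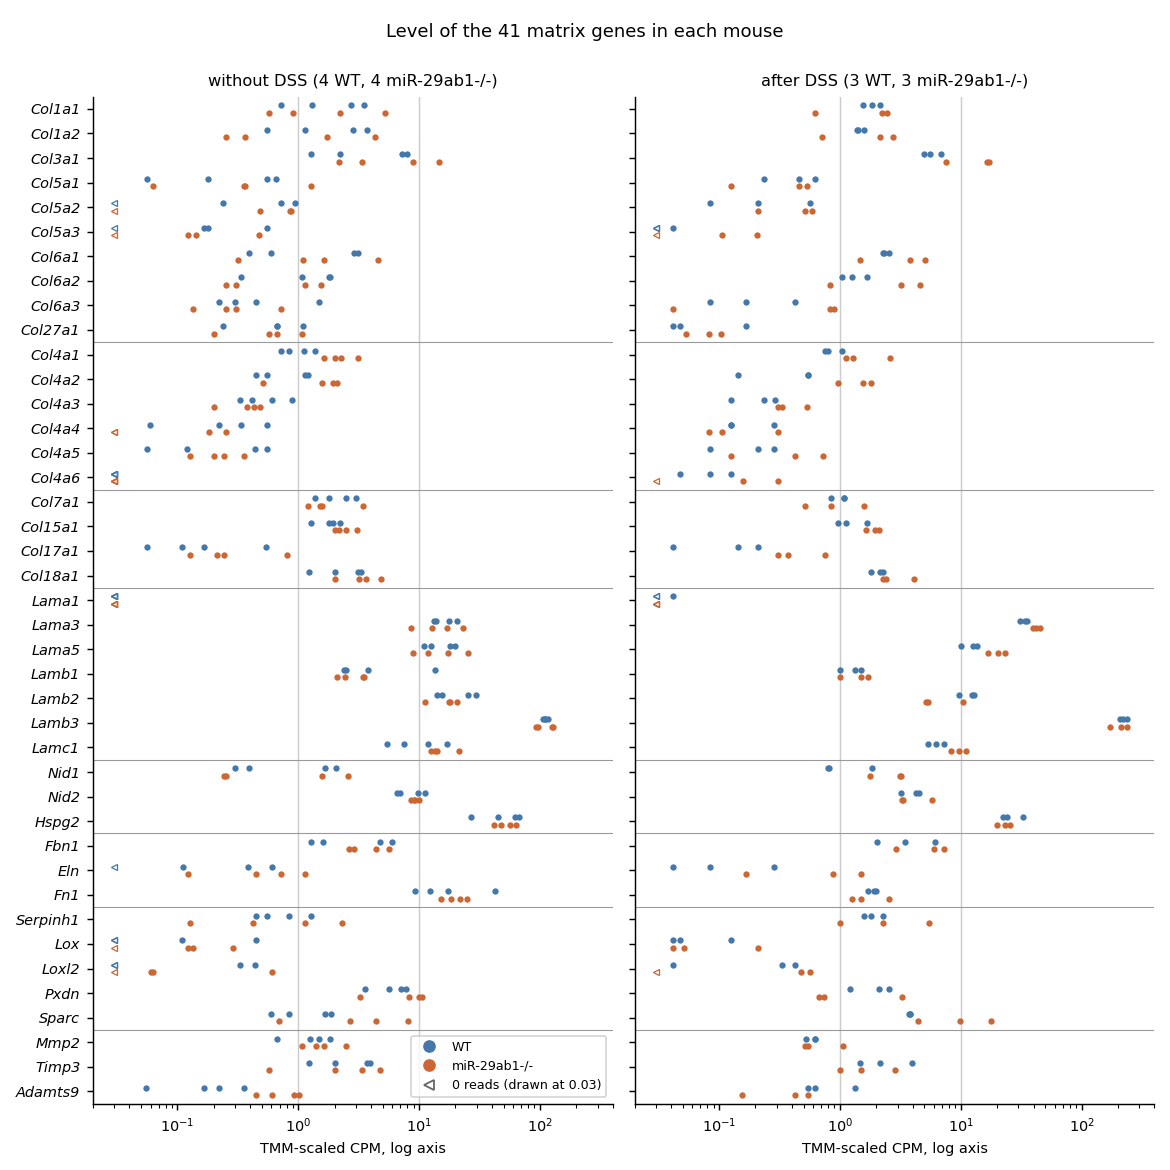
TMM-scaled CPM (log axis) of each of the 41 matrix genes in each mouse, without DSS on the left and after DSS on the right, grouped by role; each circle is 1 mouse, blue for WT and orange for miR-29ab1-/-, and triangles mark mice with 0 reads. Lamb3 and Hspg2 lie furthest right in the left panel, with Lamb3 at 92.5 to 128 CPM, while most interstitial collagens spread over a wide range among mice of 1 genotype.

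Mice of 1 genotype differed widely in several members. Without DSS, Col3a1, which encodes the collagen of fine reticular fibres, stood at 7.97, 2.20, 7.26 and 1.28 CPM in WT mice 1 to 4. In miR-29ab1-/- mice 1 to 4 it stood at 14.6, 3.34, 2.15 and 8.94 CPM. The genotypes overlapped over most of their range. The 16 members expected from mesenchymal cells summed to between 25.6 and 54.7 CPM in the WT mice and between 26.7 and 70.1 CPM in the miR-29ab1-/- mice. Fn1 alone was 42.3 CPM of the highest WT sum, in mouse 2, and 18.5 CPM of the highest miR-29ab1-/- sum, in mouse 1. Lamb3 ranged less, with 105 to 116 CPM in the WT mice and 92.5 to 128 CPM in the miR-29ab1-/- mice.

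Several members stood at different levels in the 2 tables, which is given side by side without a test. Lama3 and Lamb3, both subunits of laminin-332, were higher in all 6 mice after DSS than in all 8 without it: Lama3 ranged from 8.56 to 23.1 CPM without DSS and from 30.9 to 45.4 CPM after it. Col27a1, Lamb1, Nid2 and Fn1 were lower in all 6 mice after DSS. Fn1 ranged from 9.29 to 42.3 CPM without DSS and from 1.25 to 2.54 CPM after it. The remaining 35 members overlapped between the tables. The share of all genes that did not overlap between the tables was not computed, so these counts are not a result about matrix genes.

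Without DSS, the question was whether matrix genes stand higher when miR-29a and miR-29b are missing. Of the 41 members, 28 had enough reads to be tested with edgeR, and Col4a1 and Sparc, 2 genes, stood higher in the miR-29ab1-/- group with an unadjusted p under 0.05. None was lower at that threshold, and none had an adjusted p under 0.05. The 2 genes were 7.14% of the members tested, against 2.09% of all 15441 genes tested that were higher and 1.58% that were lower. Adjusted over all genes, 0.0194% were called higher. The median log2 fold change was 0.10 for the members and -0.0016 for all genes, and 19 members were above 0 and 9 below.

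Col4a1, which encodes the alpha 1 chain of the main type IV collagen, gave the clearest separation of the genotypes. It stood at 1.37, 0.715, 1.11 and 0.834 CPM in the WT mice and at 3.10, 2.25, 1.65 and 2.00 CPM in the miR-29ab1-/- mice. All 4 miR-29ab1-/- mice lay above all 4 WT mice, although the 8 values together rested on 209 reads. The difference was 2.22-fold, or 1.15 on the log2 scale (SE 0.32, n = 4 per genotype), with an edgeR unadjusted p of 0.00459 and an adjusted p of 1.00. Col4a1 was 1 of 28 tested members whose genotypes did not overlap in the direction of miR-29ab1-/-, and 1.11% of all tested genes did so; 0 members did so in the direction of WT, against 0.920% of all genes.

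Col4a2, the partner gene of Col4a1, encodes the alpha 2 chain with which it forms a trimer, and the genes run in opposite directions with annotated starts that share 22 bases. It stood at 1.21, 1.13, 0.554 and 0.445 CPM in the WT mice and at 1.96, 1.58, 0.507 and 2.07 CPM in the miR-29ab1-/- mice. One miR-29ab1-/- mouse lay among the WT mice. Its log2 fold change was 0.87 (SE 0.48), with an edgeR unadjusted p of 0.101.

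Type IV collagen is also made by the endothelium, so the endothelial markers are given beside these genes. The 6 markers summed to between 9.90 and 14.6 CPM in the WT mice and between 15.3 and 18.02 CPM in the miR-29ab1-/- mice, without overlap. Most of that sum was Vwf, with a log2 fold change of 0.53 (edgeR unadjusted p 0.00789). Plvap had 0.83 (edgeR unadjusted p 0.0362), Pecam1 had -0.29 (edgeR unadjusted p 0.366), and Cdh5, Kdr and Cldn5 were below the filter with means of 0.156 to 0.262 CPM. Their part in the Col4a1 difference was not tested. In bulk tissue, more cells of a type and more RNA per cell cannot be told apart.

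Sparc encodes a collagen-binding protein secreted by stromal cells and endothelium. It stood at 1.87, 0.596, 1.66 and 0.834 CPM in the WT mice and at 8.17, 2.67, 0.697 and 4.36 CPM in the miR-29ab1-/- mice. Of the 4 miR-29ab1-/- mice, 3 lay above every WT mouse and 1 lay among them. The log2 fold change was 1.67 (SE 0.66), with an edgeR unadjusted p of 0.0313 and an adjusted p of 1.00. The unadjusted p passed 0.05 no longer when any 1 of miR-29ab1-/- mice 1 and 4 and WT mice 2 and 4 was left out, nor with the replicate number of the labels as a block, nor without the filter on low counts.

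Among the laminins, Lamc1 encodes the gamma 1 chain common to most laminin trimers. It stood at 17.0, 7.5, 11.9 and 5.40 CPM in the WT mice and at 13.97, 12.5, 13.4 and 21.4 CPM in the miR-29ab1-/- mice, and the genotypes overlapped. Its log2 fold change was 0.55 (SE 0.34, edgeR unadjusted p 0.136). Of the 6 laminins tested, 3 were above 0 and 3 below, with a median of -0.04. Lamb1 had the lowest value of all members, -0.96 (SE 0.57, edgeR unadjusted p 0.123), with 13.6 CPM in WT mouse 1 and 2.09 to 3.77 CPM in the other 7 mice. Lamb3 did not separate the genotypes, with a log2 fold change of 0.00 (SE 0.12).

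The interstitial collagens showed no call without DSS: of 7 tested, 4 were above 0 and 3 below, from -0.65 for Col6a2 to 0.63 for Col3a1. Their standard errors were wide, for example 0.71 for Col1a1 and 0.88 for Col1a2, so a difference of the size seen for Col4a1 would not have been detectable for them. The 3 basement membrane zone collagens tested were Col7a1, the anchoring fibril collagen, at -0.15 (SE 0.39), Col15a1 at 0.43 (SE 0.27) and Col18a1 at 0.50 (SE 0.36). The nidogens and perlecan lay between 0.06 and 0.10. Hspg2 stood at 62.7, 44.9, 67.3 and 26.9 CPM in the WT mice and at 47.6, 56.9, 63.5 and 41.9 CPM in the miR-29ab1-/- mice, with a log2 fold change of 0.06 (SE 0.27). The genotypes overlapped.

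Fn1 stood at 9.29, 42.3, 12.2 and 17.2 CPM in the WT mice and at 18.5, 25.1, 15.2 and 21.7 CPM in the miR-29ab1-/- mice. WT mouse 2 was the highest, and the log2 fold change was -0.01 (SE 0.46). Pxdn stood at 5.61, 7.15, 7.87 and 3.56 CPM in the WT mice and at 8.30, 9.91, 10.5 and 3.22 CPM in the miR-29ab1-/- mice. Of these, 3 miR-29ab1-/- mice were above all WT mice and 1 was below them, with a log2 fold change of 0.40 (SE 0.36, edgeR unadjusted p 0.289). Mmp2 stood at 1.48, 1.25, 1.83 and 0.667 CPM in the WT mice and at 2.50, 1.40, 1.08 and 1.65 CPM in the miR-29ab1-/- mice, which overlapped at a log2 fold change of 0.33 (SE 0.38).

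Adamts9, which encodes a secreted protease that cleaves proteoglycans, was below the filter without DSS and so was not part of the fit. It stood at 0.165, 0.357, 0.0554 and 0.223 CPM in the WT mice and at 1.01, 0.608, 0.444 and 0.930 CPM in the miR-29ab1-/- mice. The genotypes did not overlap, on 59 reads in all, and since the gene is described for that reason no test of these mice alone is given.

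After DSS, 29 members were tested and 7 stood higher in the miR-29ab1-/- group with an unadjusted p under 0.05: Col3a1, Col4a2, Lama3, Lama5, Lamc1, Nid1 and Sparc. Lamb2 was lower. The 7 were 24.1% of the members tested, against 3.98% of all 14908 genes tested that were higher and 3.25% that were lower. The members were chosen with earlier results of these data known. This share, like the 7.14% without DSS, is therefore no independent contrast with all genes. No member had an edgeR adjusted p under 0.05, the 8 adjusted values lying between 0.646 and 0.655, and 0.0134% of all genes were called higher after adjustment. The median log2 fold change was 0.35 for the members and -0.0051 for all genes. Of the 29, 8 were higher without overlap of the genotypes, against 5.32% of all genes, and 1 was lower without overlap, against 6.29%. The smallest p that an exact permutation of 3 against 3 mice allows is 0.1.

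**Figure D2:**
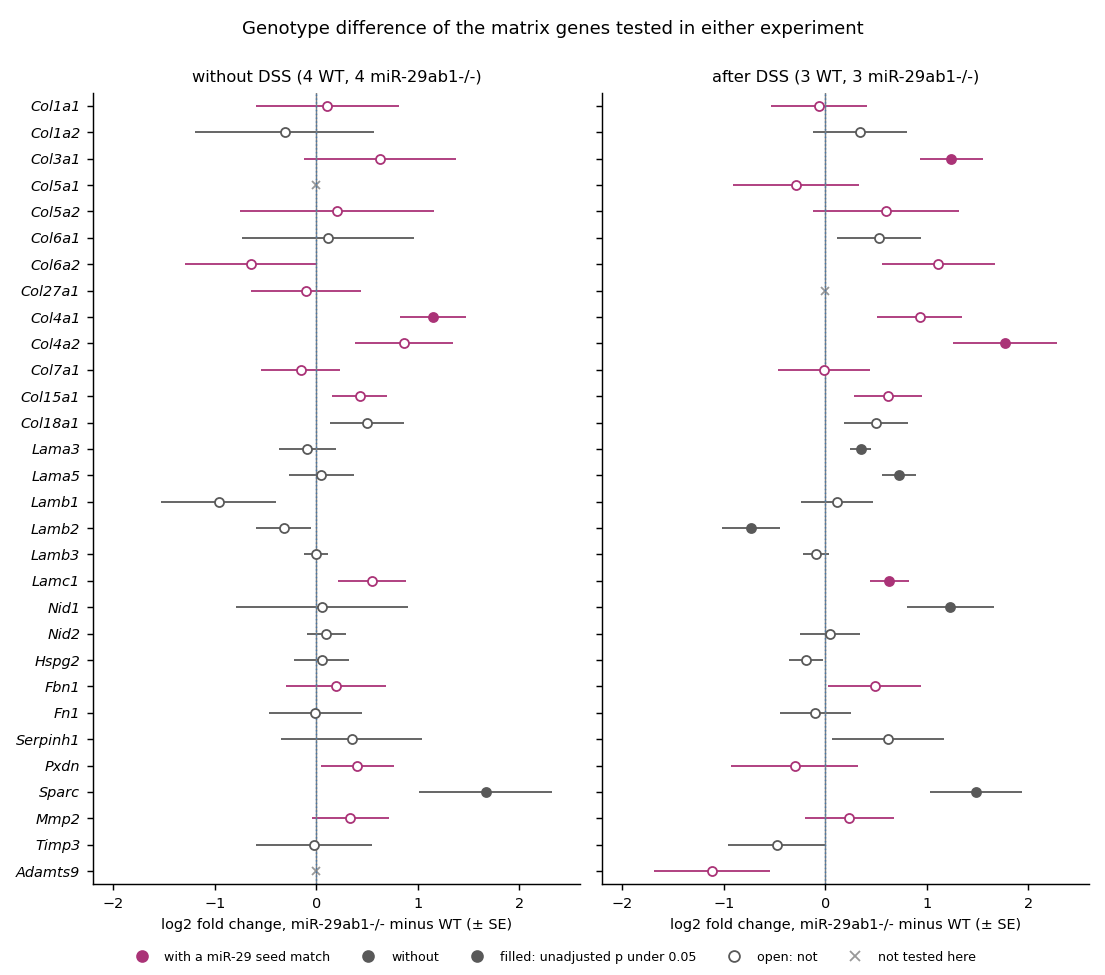
Log2 fold change (miR-29ab1-/- minus WT, edgeR) with its standard error for the 30 matrix genes tested in either experiment; filled circles have an unadjusted p under 0.05, purple marks genes with a miR-29 seed match, crosses mark genes not tested there, and the dotted line is the median of all genes. Col4a1 and Sparc are filled without DSS, 8 genes are filled after DSS, and Sparc is filled in both panels.

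Type IV collagen was again among the separated members. Col4a2 stood at 0.544, 0.543 and 0.142 CPM in the WT mice and at 1.54, 1.80 and 0.957 CPM in the miR-29ab1-/- mice. The genotypes did not overlap. The difference was 3.40-fold, or 1.77 on the log2 scale (SE 0.51, n = 3 per genotype), with an edgeR unadjusted p of 0.00745. Col4a1 stood at 0.794, 1.04 and 0.758 CPM in the WT mice and at 1.28, 2.6 and 1.12 CPM in the miR-29ab1-/- mice. Its genotypes did not overlap here either, and the log2 fold change was 0.93 (SE 0.42) with an edgeR unadjusted p of 0.0530. Of the 27 members tested in both experiments, Col4a1 was the 1 (3.70%) that stood higher without overlap in each, against 0.176% of all 14245 genes tested in both. The endothelial marker sum overlapped after DSS, at 3.68 to 5.69 CPM in the WT mice and 3.75 to 7.42 CPM in the miR-29ab1-/- mice.

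The other type IV collagens, which build the networks of specialised basement membranes, had too few reads for the test. Col4a3 stood at 0.293, 0.125 and 0.237 CPM in the WT mice and at 0.308, 0.530 and 0.333 CPM in the miR-29ab1-/- mice after DSS, which did not overlap. Without DSS it was not higher in miR-29ab1-/- mice, with 0.330 to 0.886 CPM in the WT mice and 0.203 to 0.486 CPM in the miR-29ab1-/- mice. Col4a4 and Col4a5 overlapped in both experiments, although Col4a5 held 3 of the 8mer matches.

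The laminins held 3 of the 7 higher genes. Lama5 encodes the alpha chain of laminin-511, a main laminin of the colonic epithelium. It stood at 9.95, 12.7 and 13.7 CPM in the WT mice and at 23.2, 20.1 and 16.8 CPM in the miR-29ab1-/- mice after DSS. Each miR-29ab1-/- mouse lay above each WT mouse, and the log2 fold change was 0.73 (SE 0.17) with an edgeR unadjusted p of 0.00210 and an adjusted p of 0.646. Without DSS the same gene had a log2 fold change of 0.05 (SE 0.32).

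Lama3, the alpha chain of laminin-332, stood at 30.9, 34.0 and 35.1 CPM in the WT mice and at 39.5, 45.4 and 42.1 CPM in the miR-29ab1-/- mice. The genotypes did not overlap, and the log2 fold change of 0.35 (SE 0.10, edgeR unadjusted p 0.00807) was the smallest among the called members. Lamb3, the beta chain of the same trimer, stood at 207, 219 and 237 CPM in the WT mice and at 172, 212 and 238 CPM in the miR-29ab1-/- mice. It overlapped, with a log2 fold change of -0.09 (SE 0.13).

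Lamc1 stood at 6.23, 5.31 and 7.20 CPM in the WT mice and at 11.0, 9.74 and 8.28 CPM in the miR-29ab1-/- mice. The groups were separate, with a log2 fold change of 0.63 (SE 0.20, edgeR unadjusted p 0.0104). Without DSS the corresponding value was 0.55 (SE 0.34). With all 14 mice in a single model, Lamc1, Lama3, Col3a1 and Nid1 no longer passed an unadjusted p of 0.05 after DSS.

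Lamb2, the beta 2 chain found in vascular and muscle basement membranes, was the member lower in miR-29ab1-/- mice. It stood at 12.9, 9.62 and 12.4 CPM in the WT mice and at 5.14, 5.35 and 10.4 CPM in the miR-29ab1-/- mice. Mice 1 and 2 of the miR-29ab1-/- group lay below all WT mice and mouse 3 lay among them. Its log2 fold change was -0.73 (SE 0.28, edgeR unadjusted p 0.0302), and the call was lost when any 1 of 4 mice was left out.

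In the interstitial matrix, Col3a1 stood at 4.98, 5.6 and 6.82 CPM in the WT mice and at 16.5, 17.1 and 7.57 CPM in the miR-29ab1-/- mice after DSS. The genotypes did not overlap, and miR-29ab1-/- mouse 3 lay close to the WT mice. Its mean difference was 2.36-fold, or 1.24 on the log2 scale (SE 0.31), with an edgeR unadjusted p of 0.00365 and an adjusted p of 0.646. DESeq2 on the same counts called Col3a1 after adjustment, as the 1 member it called. That fit also called more of all genes after adjustment than edgeR did, with the numbers given in the closing section. Col1a1 and Col1a2, the chains of type I collagen that accompany Col3a1 in fibres, had -0.07 (SE 0.47) and 0.34 (SE 0.47).

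Sparc stood at 3.81, 3.76 and 3.79 CPM in the WT mice and at 9.82, 17.6 and 4.41 CPM in the miR-29ab1-/- mice. The WT mice lay within 0.05 CPM of each other, and every miR-29ab1-/- mouse was above them. The log2 fold change was 1.48 (SE 0.45, edgeR unadjusted p 0.0124), and Sparc was the 1 of 27 members (3.70%) higher with an unadjusted p under 0.05 in both experiments, against 0.183% of all genes tested in both.

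Nid1, which encodes nidogen-1, the link between laminin and type IV collagen, stood at 0.794, 1.84 and 0.806 CPM in the WT mice and at 3.14, 3.23 and 1.79 CPM in the miR-29ab1-/- mice. WT mouse 2 lay just above miR-29ab1-/- mouse 3, so the genotypes overlapped. The log2 fold change was 1.23 (SE 0.43, edgeR unadjusted p 0.0176), and the call was lost when any 1 of 4 mice was left out. Nid2 and Hspg2 had log2 fold changes of 0.04 (SE 0.29) and -0.19 (SE 0.17).

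The collagens at the epithelial side were low. Col17a1, a transmembrane collagen of hemidesmosomes that was below the filter, stood at 0.0418, 0.209 and 0.142 CPM in the WT mice and at 0.308, 0.371 and 0.749 CPM in the miR-29ab1-/- mice after DSS. Col18a1, the precursor of endostatin, stood at 2.26, 2.13 and 1.80 CPM in the WT mice and at 2.42, 4.08 and 2.29 CPM in the miR-29ab1-/- mice. Neither overlapped, though for Col18a1 the gap between the genotypes was narrow, and its log2 fold change was 0.50 (SE 0.31, edgeR unadjusted p 0.147).

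Fbn1, which encodes the microfibril protein fibrillin-1, stood at 2.01, 3.43 and 6.16 CPM in the WT mice and at 6.01, 2.91 and 7.20 CPM in the miR-29ab1-/- mice, and Timp3 at 2.13, 1.46 and 3.93 CPM against 1.49, 1.01 and 2.83 CPM. Both overlapped, with log2 fold changes of 0.48 (SE 0.46) and -0.48 (SE 0.48).

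Type VI collagen, the beaded filament around cells, did not pass the threshold. Col6a2 stood at 1.25, 1.04 and 1.66 CPM in the WT mice and at 3.19, 4.61 and 0.832 CPM in the miR-29ab1-/- mice. Mice 1 and 2 lay above all WT mice and mouse 3 below them. For Col6a2 the log2 fold change was 1.11 (SE 0.56, edgeR unadjusted p 0.0802). Eln, which encodes elastin and was below the filter, stood at 0.874, 1.48 and 0.166 CPM in the miR-29ab1-/- mice against 0.0418, 0.0836 and 0.284 CPM in the WT mice.

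**Figure D3:**
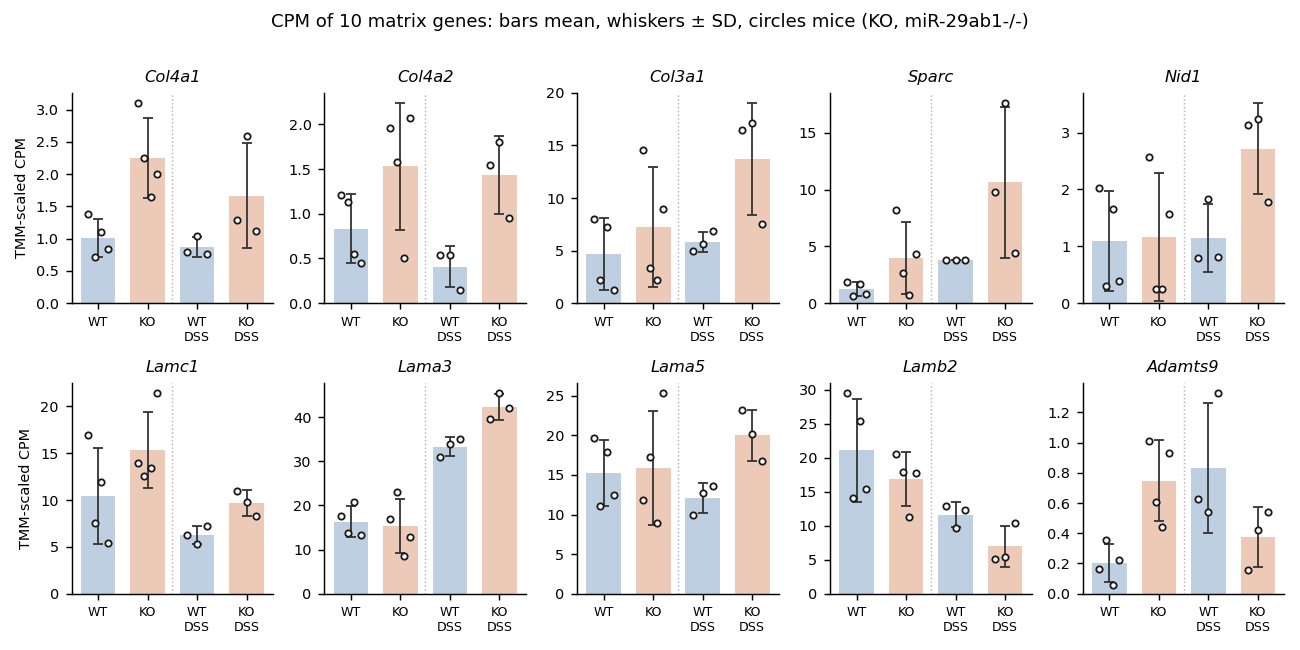
TMM-scaled CPM of 10 matrix genes by genotype (KO, miR-29ab1-/-), with bars for the mean, whiskers for the SD and a circle for each mouse (n = 4 per genotype without DSS, 3 after DSS; the axis of each panel starts at 0). Col4a1 is separate in both experiments, and Col4a2, Col3a1, Sparc, Lama3, Lama5 and Lamc1 are separate after DSS. Adamts9 is separate in opposite directions, with WT mouse 2 and miR-29ab1-/- mouse 3 nearly equal after DSS.

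miR-29ab1-/- mouse 3 therefore set much of the spread after DSS. The 16 mesenchymal members summed to 22.2, 23.6 and 30.3 CPM in the WT mice and to 50.5, 61.6 and 27.3 CPM in miR-29ab1-/- mice 1, 2 and 3. Leukocyte markers summed to 28.6, 26.8 and 56.1 CPM in the WT mice and to 84.2, 59.5 and 36.3 CPM in the miR-29ab1-/- mice. In these markers mouse 3 was again the lowest of the miR-29ab1-/- mice, while WT mouse 3 lay close to miR-29ab1-/- mouse 2. Fibroblast markers summed to 66.4, 69.9 and 36.9 CPM in the miR-29ab1-/- mice against 39.4 to 65.9 CPM in the WT mice. Mice 1 and 2 were also those with the higher mitochondrial share. The part of cell composition and of RNA quality in these differences was not tested. Without mouse 3, 14 members were higher at an unadjusted p under 0.05 and 2 lower, against 8.43% of all genes higher and 8.13% lower in that fit, so that the 2 of 31 lower were near the background. Without mouse 2, 6 members were higher, against 1.75% of all genes.

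The 6 smooth muscle markers stayed near 0 after DSS, with sums of 0.962 to 2.38 CPM in the WT mice and 1.54 to 3.60 CPM in the miR-29ab1-/- mice. The 5 epithelial basement membrane members summed to 249 to 287 CPM in the WT mice and 236 to 299 CPM in the miR-29ab1-/- mice. These sums are dominated by Lamb3.

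**Figure D4:**
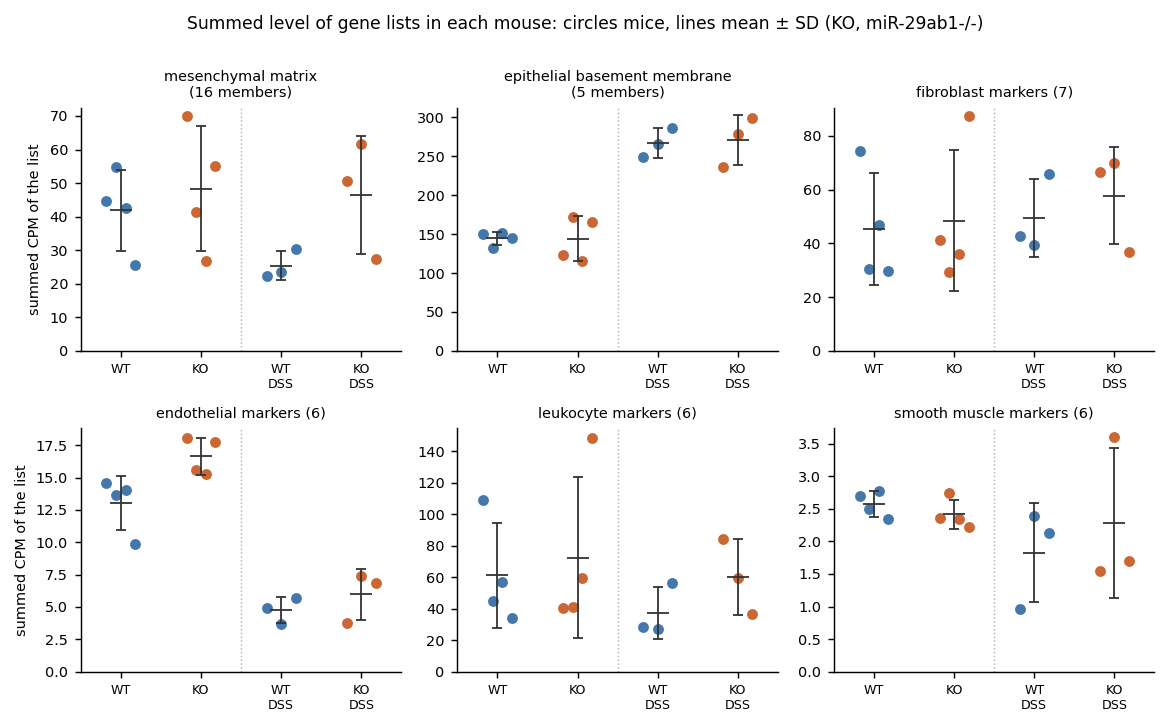
Summed CPM per mouse (linear axes from 0) of the mesenchymal and epithelial matrix members and of cell type markers, with a circle for each mouse and lines for the mean and SD. After DSS, miR-29ab1-/- mice 1 and 2 are high and mouse 3 (27.3 CPM) lies within the WT range for mesenchymal matrix. Endothelial markers separate the genotypes without DSS, and the mesenchymal matrix sum there includes Fn1 at 9.29 to 42.3 CPM.

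The 2 experiments used different mice. Of 27 members tested in both, 15 (55.6%) had a log2 fold change above 0 in each experiment and 4 (14.8%) below 0 in each, against 24.8% and 27.6% of all genes tested in both. The choice of members with earlier results of these data known limits this contrast as well. Whether the genotype difference itself differed with DSS was tested in 1 model over all 14 mice. Of 32 members tested, 1 passed an unadjusted p of 0.05: Adamts9, with a more negative difference after DSS, against 2.30% of all 16370 genes in that direction and 1.73% in the other. No gene passed after adjustment with edgeR, and 0 of the members did with DESeq2.

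Adamts9 stood at 0.627, 0.543 and 1.33 CPM in the WT mice and at 0.154, 0.424 and 0.541 CPM in the miR-29ab1-/- mice after DSS. The order was thus the opposite of that without DSS, with WT mouse 2 and miR-29ab1-/- mouse 3 nearly equal. The log2 fold change after DSS was -1.11 (SE 0.57, edgeR unadjusted p 0.0817). The interaction was -2.98 (SE 0.81, edgeR unadjusted p 0.00208, adjusted p 0.987), on values near the floor of the assay. Most Adamts9 reads lay in the miR-29ab1-/- mice without DSS and the WT mice after DSS, the higher group of each table. The gene thus met the count filter of that fit on the groups where it was high, and this p is no support for the difference. For Lama5, Lama3 and Col3a1, called after DSS and not without it, the interaction did not pass the threshold, so these differences were not shown to depend on DSS.

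The seed matches did not divide the members cleanly. Of the tested members without DSS, 13 held a match and had a median log2 fold change of 0.33, and 15 held none and had 0.05. After DSS the medians were 0.54 for 14 members with a match and 0.34 for 15 without. The 3 members with a match that were called after DSS were Col3a1, Col4a2 and Lamc1, whereas Lama3, Lama5, Nid1 and Sparc had none. Col6a2 and Col7a1, with 2 matches each, had log2 fold changes of -0.65 and -0.15 without DSS.

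Over all tested genes, 3.55% of those with a match and 1.80% of those without stood higher in the miR-29ab1-/- group without DSS by the same threshold. After DSS the shares were 5.58% and 3.64%. With the 8mer alone they were 7.49% against 1.89% without DSS and 8.45% against 3.80% after it. The median log2 fold changes were 0.03 with a match and -0.01 without, in the mice without DSS, and -0.01 and -0.02 after DSS. Genes with a match had longer 3′ UTRs, with a median of 2392 bases against 983, and the part of UTR length was not tested.

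**Figure D5:**
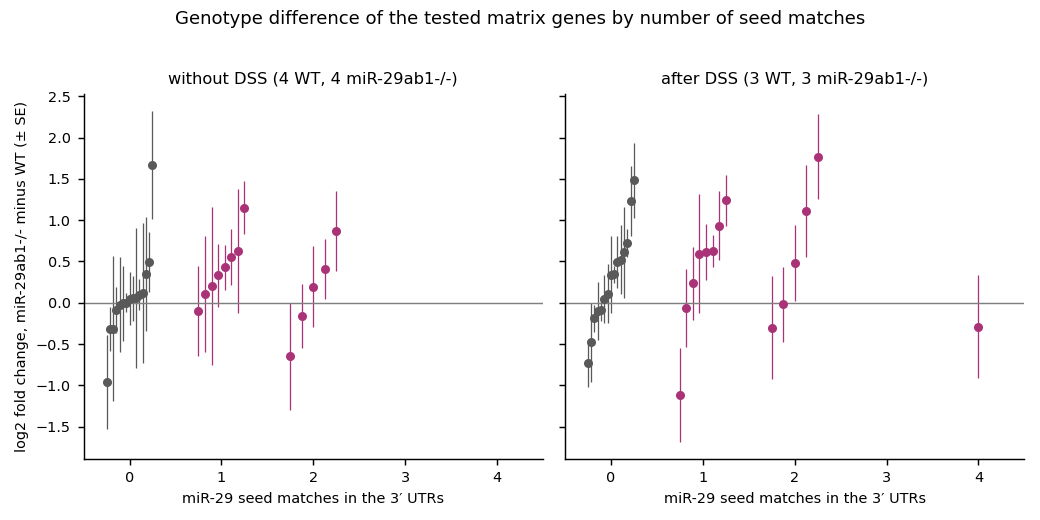
Log2 fold change (± SE) of the tested matrix genes against the number of miR-29 seed matches in their 3′ UTRs, without DSS (28 genes) and after DSS (29 genes); within a number, genes are spread sideways in order of fold change. Genes without a match include Sparc, the highest point without DSS at 1.67, and genes with 2 matches range from -0.65 to 0.87 there.

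Matrix genes outside the 41 were counted from 6 further lists of 12 to 17 genes. Without DSS, of 54 tested, 2 genes (3.70%) were higher and 3 (5.56%) lower at an unadjusted p under 0.05, against 2.09% and 1.58% of all genes. Mmp7, an epithelial metalloprotease, averaged 3.76 ± 2.17 CPM (SD, n = 4) in the WT mice and 8.77 ± 2.90 CPM in the miR-29ab1-/- mice, which is 1.22 on the log2 scale (SE 0.42, edgeR unadjusted p 0.0170). Fbn2, which encodes fibrillin-2, had 1.11 (SE 0.40). Plod2, a collagen lysyl hydroxylase, had -0.99 (SE 0.39), while the matricellular gene Smoc2 and the receptor gene Sdc1 had -0.29 (SE 0.11) and -0.28 (SE 0.09).

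After DSS, of 54 tested in these lists, 1 gene (1.85%) was higher and 1 (1.85%) lower, which is below the 3.98% and 3.25% of all genes. Itgav, which encodes the alpha V integrin that binds fibronectin and other matrix proteins, averaged 25.0 ± 2.08 CPM (SD, n = 3) in the WT mice and 34.9 ± 3.27 CPM in the miR-29ab1-/- mice. On the log2 scale the difference was 0.48 (SE 0.12, edgeR unadjusted p 0.00241, adjusted p 0.646). Adam15, a membrane metalloprotease, had -0.49 (SE 0.20). None of the genes in these lists had an edgeR adjusted p under 0.05 in either experiment, with 5 genes at an unadjusted p under 0.05 without DSS and 2 after it.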

How the data were processed

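RNA extracted with TRIzol was made into libraries with a strand-marking kit (NEBNext Ultra Directional). The deposited tables hold raw read counts per gene and mouse; the submitters' processing notes name HISAT2 and DESeq2, while versions, the counting tool, its strand setting and the genome build were not given in the sources used here. The authors excluded a WT and a miR-29ab1-/- sample. The gene length column deposited by the authors was used for CPM per kilobase. The 14 columns of FPKM values, and the authors' own group means, fold changes and p-values, were not used. Start and end of the members equalled GENCODE vM21 (GRCm38), with Lox after DSS as the exception.

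Counts were filtered with filterByExpr (minimum count 10, total 15), scaled by TMM and tested within each table by the edgeR 4.0.16 quasi-likelihood test (R 4.3.3, limma 3.58.1) with Benjamini-Hochberg adjustment over all genes tested. The interaction was fitted over all 14 mice. DESeq2 1.42.0, other scalings, filters, the replicate block and leaving out each mouse were alternatives. P-values judge a difference against the spread between mice, which edgeR estimates for each gene with information from all genes tested. Pairs of replicate libraries differed beyond sampling noise. Limits from 3 counts cover counting error only. Scripts were tested on simulated data. The members and lists were chosen with earlier results of these data known. Named genes were those with an unadjusted p under 0.05, those whose genotypes did not overlap, Col4a1, Lamc1 and the highest member of each role; Col4a4, Col4a5, Col6a2, Eln and others set beside them were chosen after their values were seen. After DSS, table columns were matched to groups and not to individual labels.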

Additional observations from a re-analysis of the deposited data

Results flagged for a closer look

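In 3 members, 1 mouse lay far from the other 3 of its group by Dixon's test, out of 56 groups of 4 mice tested, and chance flags about 1 in 20 groups. Col7a1 stood at 3.465 CPM in miR-29ab1-/- mouse 2 without DSS, against 1.215 to 1.585 CPM in the other 3. Lamb1 stood at 13.63 CPM in WT mouse 1 without DSS, against 2.382 to 3.767 CPM, and this mouse gives Lamb1 its low fold change. Lamc1 stood at 21.39 CPM in miR-29ab1-/- mouse 4 without DSS, against 12.52 to 13.97 CPM. Groups of 3 mice were not tested in this way.

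The interaction of genotype and experiment for Adamts9 was -2.98 on the log2 scale (edgeR unadjusted p 0.00208, adjusted p 0.987). The gene met the count filter on the groups where it was high, so this p is no support for a difference between the experiments. The miR-29ab1-/- mice were higher in 4 of 4 without DSS and lower in 3 of 3 after DSS, relative to every WT mouse. After DSS, WT mouse 2 and miR-29ab1-/- mouse 3 each had 13 reads, and 0.543 and 0.541 CPM, so that order rests on the library scaling.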

How the results depend on the processing

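Without DSS, Col4a1 passed an unadjusted p of 0.05 under all 6 alternatives and without any 1 mouse; Sparc passed under 4 of 6. With the replicate block 1 member was higher instead of 2, against 2.18% of all genes. The members' median log2 fold change, 0.1043 with all mice, ran from -0.0556 without WT mouse 4 and -0.0085 without WT mouse 2 to 0.3664 without miR-29ab1-/- mouse 3 and 0.4561 without WT mouse 1. The members called higher ranged from 1 to 4 without 1 mouse, against 1.79% to 2.68% of all genes in those fits. Same-numbered mice correlated at -0.03, 0.149, -0.194 and -0.127 in their deviations from the group means, and differently numbered mice at -0.277 to 0.262. The general methods of the study describe littermates matched for age and sex. These correlations cannot show whether same-numbered mice shared a litter or were handled together. No paired analysis was possible after DSS or for the interaction because the columns carry no number from the labels.

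After DSS, Lama5 and Sparc passed under all 5 alternatives. Col4a2 was not tested with at least 10 counts in every mouse. Without the filter 11 members were higher, against 3.82% of all genes, 2 of them after adjustment, and the median was 0.4887. DESeq2 gave 8 higher, against 4.64% of all genes, and 1 after adjustment. Without 1 mouse, 6 to 14 members were higher, 0 to 2 lower, 0 to 2 higher after adjustment, and the median ran from 0.1394 to 0.5286. Over the same fits the share of all genes ran from 1.75% to 8.43% higher and from 1.41% to 8.13% lower. For the interaction with at least 10 counts in every mouse, Adamts9 was not tested. In that fit 0 of the 18 members tested were more negative, against 2.03% of all genes. Without 1 mouse, 0 to 2 were more positive and 1 to 3 more negative, against 0.958% to 3.28% and 1.47% to 5.54% of all genes.

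Over all genes without DSS, DESeq2 called 12 higher and 11 lower after adjustment. No filter gave 703 higher and 396 lower by unadjusted p, and 7 and 4 by adjusted p. At least 10 counts in every mouse gave 0 higher by adjusted p, and leaving out 1 mouse gave 0 to 1 lower. After DSS, DESeq2 called 44 higher and 15 lower after adjustment. No filter gave 1037 higher and 782 lower by unadjusted p, and 32 and 14 by adjusted p; at least 10 counts in every mouse gave 0 higher. Leaving out 1 mouse gave 268 to 1288 higher and 215 to 1242 lower by unadjusted p, and 0 to 54 and 0 to 39 by adjusted p. The cause of these shifts was not tested. Depth limits the members under 1 CPM, most of which rest on a few reads per mouse.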
